A study of Arabidopsis thaliana with 6 samples.

Results

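The 29 Aux/IAA repressor genes (*IAA1* to *IAA20* and *IAA26* to *IAA34*) and the auxin receptor genes *TIR1*, *AFB1*, *AFB2* and *AFB3* were followed in *Arabidopsis thaliana* seedlings under reductive stress. They were taken by locus from these families, with no cut on a measured value but with earlier results of these data known. All 33 were found among the 27827 probe sets of the array. Affymetrix Arabidopsis Gene 1.0 ST arrays were hybridized with RNA of *naa20*-1 mutants (3 arrays) and of the wildtype accession Col-0 (3 arrays). *naa20*-1 is a single T-DNA insertion line in the gene of the catalytic subunit of NatB, a complex that acetylates the N-terminus of nascent proteins. Both genotypes received dithiothreitol (DTT), a thiol reductant, at 2 mM, so the differences given here are between genotypes under DTT, and the response to DTT itself was not measured with these arrays. According to the sample labels, seedlings were moved to DTT medium on day 2 and kept there for 15 days under short days. They were harvested whole on day 17 in pools of at least 10, with 3 pools listed for each sample. The methods differ on this point, with a legend that describes single plants and a pretreatment of *naa20* seeds on control medium. The start of DTT may therefore not have been the same in both genotypes. The same legend states that samples were chosen for the arrays by RNA integrity and purity.

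Auxin acts as a molecular glue between a TIR1/AFB protein, the F-box subunit of an SCF ubiquitin ligase, and an Aux/IAA protein. Without auxin, Aux/IAA proteins hold auxin response factors (ARFs) in check together with TOPLESS corepressors, and with auxin they are ubiquitinated and degraded. Many Aux/IAA genes are themselves rapidly induced by auxin through ARFs, so the family is both a repressor and a target of the pathway. In Arabidopsis, dominant mutations that stabilize single Aux/IAA proteins alter root growth, lateral roots, root hairs, gravitropism and leaf shape.

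The *NAA20* transcript (AT1G03150) had log2 signals of 7.44, 6.98 and 7.54 on the *naa20* arrays, against 8.69, 8.56 and 8.83 on the wildtype arrays, which was 2.60-fold lower (limma adjusted p = 0.000689). The third arrays departed from their genotype means together (r = 0.385 across probe sets, which are not independent). The other arrays departed the opposite way from array 3 of the other genotype (r between -0.287 and -0.239). Deviations from a mean of 3 arrays sum to 0, so these negative values are tied to the positive one and are not a separate observation. On the third arrays, 23 of the 33 members lay below the *naa20* mean and 19 below the wildtype mean. Whole seedlings were measured, so fewer cells of a type and less RNA per cell cannot be told apart. Of 20 root marker genes, 18 had lower signals in *naa20* (90%, against 50.4% of all probe sets), 15 of them with an adjusted p under 0.05 (75.0%, against 17.4%). The summed linear signal of the 20 was 1348 to 1615 in *naa20* and 4525 to 5286 in wildtype. *CASP1* and *PHO1* had the highest wildtype means of the list (10.64 and 10.44) and weighed most in the wildtype sum. *CASP1*, *CASP2*, *CASP5*, *ESB1*, *PHO1*, *NRT2.1*, *COBL9*, *EXPA7* and *GL2* were among the root markers more than 2-fold lower, with *CASP1* lowest at -2.43. The 4 root markers with an adjusted p of 0.05 or more were *SHR* at 0.01, *WOX5* at -0.24, *SKOR* at -0.33 and *PLT2* at -0.42 (limma adjusted p from 0.102 to 0.958). The potassium transporter gene *HAK5* had the highest difference at 0.62 (limma adjusted p = 0.0278), and adjusted p lay between 0.0638 and 0.0917 without any 1 array other than the second *naa20* array. Of 10 genes of photosynthesis in leaves, 8 had lower signals with an adjusted p under 0.05 (80%, against 17.4% of all probe sets), from *LHCA1* at -1.25, and *RBCS1A* was equal on all arrays at 14.18, near the top of the range. Their summed linear signal was 63004 to 67214 in *naa20* and 78051 to 80148 in wildtype. Of 4 shoot meristem markers, *CLV1* was lower at -0.95 (limma adjusted p = 0.00651), and *STM* had the highest difference at 0.33 (adjusted p = 0.189). Their summed linear signal was 119 to 175 in *naa20* and 170 to 197 in wildtype. *CLV3* averaged 2.40 in *naa20* and 2.44 in wildtype, and *WUS* 2.80 in *naa20* and 2.62 in wildtype, near the lowest signal of the arrays (1.75). What part these tissues had in the values of the auxin genes was not tested.

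Signals of the auxin repressors and receptors were mostly lower in *naa20*, and mostly by less than 2-fold. The difference was below 0 for 26 of the 33 members (78.8%), against 50.4% of all probe sets. Of the 33 members, 13 (39.4%) were lower in *naa20* with an adjusted p under 0.05 in limma, against 17.4% of all probe sets. In the other direction, 2 members (6.06%) were higher, against 16.6% of all probe sets, so that 15 of 33 (45.5%) differed, against 33.9%. At least a 2-fold difference with such a p was found for *IAA14* and *IAA4* alone, or 6.06% of the members, against 9.92% of all probe sets. Both were lower in *naa20*, as were 4.97% of all probe sets by this limit, and 0 members were higher, against 4.95%. The 3 *naa20* arrays all lay below the 3 wildtype arrays for 14 members (42.4%, against 24.1% of all probe sets) and above them for 5 members (15.2%, against 23.4%). The median log2 difference was -0.32 over the Aux/IAA genes and -0.54 over the receptors, while the median over all probe sets was -0.004. The signals of 10 Aux/IAA genes lay below the 25th percentile of mean signal (3.75), and 3 of these 10 passed the test, against 12 of the 23 brighter members. Leaving out the first wildtype array lowered the members that differed to 11, the lowest number with any array left out, and *IAA31*, at -1.07, then joined the 2-fold genes.

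**Figure D1:**
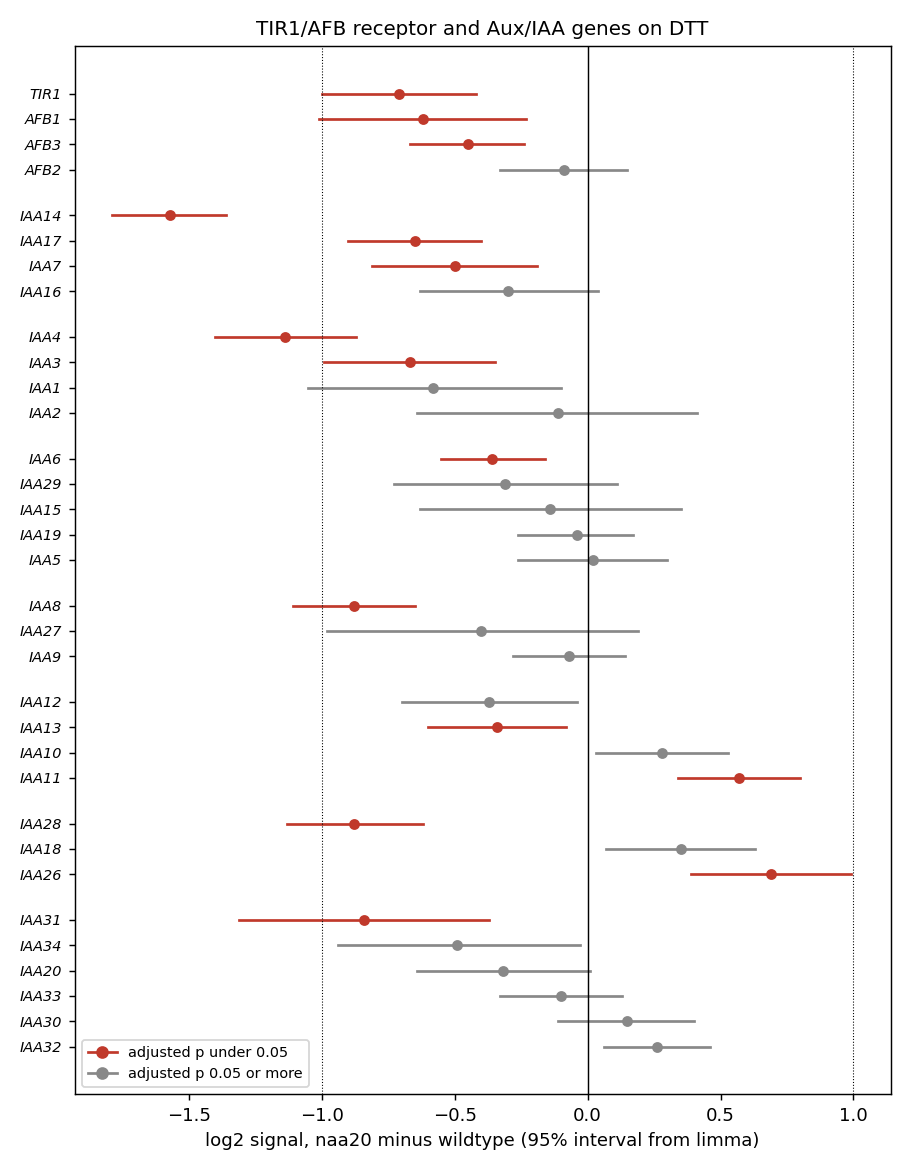
The log2 difference (*naa20* minus wildtype) of each of the 33 genes with its 95% interval from limma, grouped by related genes with the receptors at the top, where dotted lines mark 2-fold. Points lie left of 0 for 26 genes, past the left dotted line for *IAA14* and *IAA4* alone, and right of 0 with an adjusted p under 0.05 for *IAA11* and *IAA26* alone.

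The receptor genes differed unevenly, with *TIR1*, *AFB1* and *AFB3* lower in *naa20* and *AFB2* close to its wildtype signal. *TIR1* (AT3G62980), which encodes the founding member of the receptor family and accounts for much of the auxin response of roots, had log2 signals of 9.76, 10.12 and 9.74 in *naa20*, against 10.57, 10.67 and 10.52 in wildtype. The mean was 9.87 ± 0.21 in *naa20* and 10.59 ± 0.08 in wildtype (SD, n = 3 each), a log2 difference of -0.71 ± 0.12 (SE, limma adjusted p = 0.00414), or 1.64-fold lower. All 3 *naa20* arrays were below all wildtype arrays, and the second *naa20* array was the closest to them. *AFB1* (AT4G03190), known for rapid, non-transcriptional auxin responses in roots, had 6.95, 6.69 and 6.57 in *naa20*, against 7.58, 7.44 and 7.06 in wildtype. Its log2 difference was -0.62 ± 0.16 (SE, limma adjusted p = 0.0238). The genotypes did not overlap, but the third wildtype array was only slightly above the first *naa20* array, and adjusted p lay between 0.07 and 0.0778 without the second or the third *naa20* array or the first or second wildtype array. *AFB3* (AT1G12820), known for the response of roots to nitrate, had 9.27, 9.40 and 9.44 in *naa20*, against 9.73, 9.88 and 9.87 in wildtype, a log2 difference of -0.45 ± 0.09 (SE, limma adjusted p = 0.00813). The spread within each genotype was far smaller than the distance between them. *AFB2* (AT3G26810), which acts beside *TIR1* in seedling auxin response, had 8.83, 8.70 and 8.76 in *naa20*, against 9.01, 8.79 and 8.75 in wildtype, and its arrays overlapped. Its log2 difference was -0.09 (limma adjusted p = 0.566), with a 95% interval from -0.33 to 0.15 that leaves out differences of the size seen for *TIR1*. Of the remaining receptor genes, which are not among the 33, *AFB4* had a log2 difference of 0.21 (adjusted p = 0.191) and *AFB5* one of -0.15 (adjusted p = 0.228), so neither passed the test.

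The microRNA miR393, which targets transcripts of *TIR1* and *AFB* genes, is made from a pair of loci, and both differed between the genotypes in opposite directions. *MIR393A* (AT2G39885) had log2 signals of 6.20, 6.16 and 5.92 in *naa20*, against 4.09, 4.77 and 4.61 in wildtype, a log2 difference of 1.61 ± 0.18 (SE, limma adjusted p = 0.000617), or 3.05-fold higher. *MIR393B* (AT3G55734) had 3.70, 3.58 and 3.66 in *naa20*, against 4.16, 4.34 and 4.46 in wildtype, a log2 difference of -0.68 ± 0.10 (SE, limma adjusted p = 0.00231). Its *naa20* signals lay below the 25th percentile of mean signal (3.75), where the deposited values do not tell whether a probe set was detected. For both loci the genotypes were apart on all arrays. These probe sets read the RNA of the loci and not the mature microRNA. Their part in the receptor signals was not tested.

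**Figure D2:**
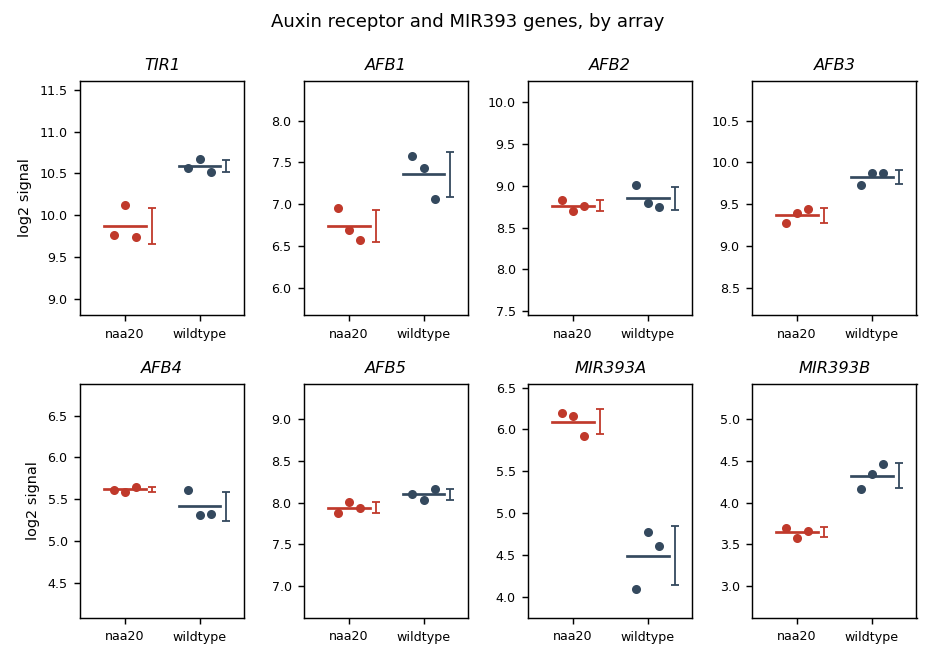
Log2 signals of the TIR1/AFB family and of both *MIR393* loci on the 3 *naa20* arrays (red, left) and the 3 wildtype arrays (dark, right), with the mean as a line and 1 SD as a bar, on axes of equal span. The genotypes lie apart for *TIR1*, *AFB1*, *AFB3*, *AFB5* and *MIR393B* (lower in *naa20*) and for *MIR393A* (6.10 in *naa20*, 4.49 in wildtype). They overlap for *AFB2* and *AFB4*.

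Among the Aux/IAA genes, the largest shift was that of *IAA14*, and the differences of its closest relatives were smaller and also below 0. *IAA14* (AT4G14550, SOLITARY ROOT) represses the ARFs that start lateral roots. It had log2 signals of 6.42, 6.32 and 6.21 in *naa20*, against 7.84, 7.93 and 7.89 in wildtype. The mean was 6.32 ± 0.10 in *naa20* and 7.89 ± 0.05 in wildtype (SD, n = 3 each), a log2 difference of -1.57 ± 0.09 (SE, limma adjusted p = 4.67e-05), or 2.98-fold lower. This was between -1.62 and -1.52 with any single array left out. The 20 root markers had a median difference of -1.04 on the same arrays, and their part in this value was not tested. *IAA17* (AT1G04250, AXR3), whose stabilized form suppresses root hairs, had 7.33, 7.31 and 7.32 in *naa20*, against 8.11, 7.78 and 8.03 in wildtype. Its log2 difference was -0.65 ± 0.11 (SE, limma adjusted p = 0.00319), with almost no spread among the *naa20* arrays. *IAA7* (AT3G23050, AXR2), known from agravitropic dwarf mutants, had 7.99, 8.04 and 7.72 in *naa20*, against 8.46, 8.58 and 8.22 in wildtype, a log2 difference of -0.50 ± 0.13 (SE, limma adjusted p = 0.0232). The third array was the lowest in each genotype, and without the first or the third *naa20* array or the first or second wildtype array adjusted p lay between 0.0515 and 0.0799. *IAA16* (AT3G04730) had a log2 difference of -0.30 (95% interval from -0.63 to 0.04, adjusted p = 0.164) and overlapping arrays.

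In the group of *IAA1* to *IAA4*, which holds classical auxin-inducible genes, *IAA4* and *IAA3* were lower in *naa20* and the other members did not pass the test. *IAA4* (AT5G43700) had log2 signals of 3.3, 3.44 and 3.47 in *naa20*, against 4.45, 4.44 and 4.73 in wildtype, a log2 difference of -1.14 ± 0.11 (SE, limma adjusted p = 0.000349), or 2.20-fold lower. Its *naa20* signals lay below the 25th percentile of mean signal, where the deposited values do not tell whether a probe set was detected. *IAA3* (AT1G04240, SHY2), which sets the size of the root meristem between auxin and cytokinin, had 3.32, 3.09 and 3.45 in *naa20*, against 4.16, 3.89 and 3.81 in wildtype. The log2 difference was -0.67 ± 0.14 (SE, limma adjusted p = 0.00832), again with low signals and genotypes apart. *IAA1* (AT4G14560) differed by -0.58 (95% interval from -1.05 to -0.10, adjusted p = 0.0655), with the first *naa20* array inside the wildtype range, and adjusted p was 0.017 without that array. *IAA2* (AT3G23030) differed by -0.11 (95% interval from -0.64 to 0.41, adjusted p = 0.753).

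The group of *IAA5*, *IAA6*, *IAA15*, *IAA19* and *IAA29*, whose members include genes of hypocotyl growth and tropisms, had low signals and small differences. The one member past the test, *IAA6* (AT1G52830, SHY1), had 2.35, 2.32 and 2.40 in *naa20*, against 2.77, 2.67 and 2.70 in wildtype, a log2 difference of -0.36 ± 0.08 (SE, limma adjusted p = 0.0135). These signals are close to the lowest of the arrays (1.75), and adjusted p was 0.0557 without the first wildtype array. *IAA29*, a target of PIF factors, had a difference of -0.31 (adjusted p = 0.239), and *IAA15* had -0.14 (adjusted p = 0.657). *IAA19* (MSG2), a repressor of the ARFs of tropic bending, had -0.04 (95% interval from -0.26 to 0.17), and *IAA5* had 0.02 (95% interval from -0.26 to 0.30).

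*IAA8*, *IAA9* and *IAA27* form a group of related repressors with high or medium signals, of which *IAA8* alone passed the test. *IAA8* (AT2G22670), linked to lateral root formation, had log2 signals of 8.09, 8.14 and 8.01 in *naa20*, against 9.03, 9.03 and 8.81 in wildtype. The mean was 8.08 ± 0.07 in *naa20* and 8.96 ± 0.13 in wildtype (SD, n = 3 each), a log2 difference of -0.88 ± 0.10 (SE, limma adjusted p = 0.000588), or 1.84-fold lower. The gap between the genotypes was several times the spread within either. *IAA9* (AT5G65670), whose tomato counterpart sets leaf form, had 10.57, 10.57 and 10.54 in *naa20*, against 10.70, 10.67 and 10.52 in wildtype, a log2 difference of -0.07 (95% interval from -0.28 to 0.14, adjusted p = 0.597). *IAA27* (AT4G29080) had 6.75, 6.74 and 6.11 in *naa20*, against 7.04, 7.27 and 6.47 in wildtype, and array 3 was lowest in each genotype. The log2 difference of -0.40 did not pass in limma (adjusted p = 0.28). It passed when arrays were blocked by replicate number (adjusted p = 0.0259) or when array 3 of each genotype was left out (adjusted p = 0.0472).

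*IAA10* to *IAA13* split by pairs, with *IAA11* higher in *naa20* and *IAA13* lower. *IAA11* (AT4G28640) had 9.03, 9.02 and 8.81 in *naa20*, against 8.41, 8.43 and 8.31 in wildtype, a log2 difference of 0.57 ± 0.10 (SE, limma adjusted p = 0.00391), or 1.48-fold higher. Its relative *IAA10* (AT1G04100) had 0.28 (adjusted p = 0.0825), also with all *naa20* arrays above all wildtype arrays. *IAA12* (AT1G04550, BODENLOS) holds back *ARF5* in the embryo when the root is founded. Its log2 difference was -0.37 (limma adjusted p = 0.0846), and it passed with blocking by replicate number (adjusted p = 0.0383), without array 3 of each genotype (0.0292) and without the third wildtype array (0.019). *IAA13* (AT2G33310), which overlaps with it in function, had 6.32, 6.45 and 6.34 in *naa20*, against 6.83, 6.52 and 6.79 in wildtype, a log2 difference of -0.34 ± 0.11 (SE, limma adjusted p = 0.0493). That call was lost in more settings than any other of the family, and the second wildtype array lay just above the *naa20* arrays. Adjusted p was 0.0791 with blocking by replicate number, 0.181 without array 3 of each genotype and between 0.0692 and 0.153 without any 1 array other than the second wildtype array.

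*IAA26* was higher and *IAA28* lower in *naa20*. *IAA28* (AT5G25890), which acts in the roots where lateral root founder cells are specified, had 7.11, 7.25 and 6.97 in *naa20*, against 8.06, 8.04 and 7.86 in wildtype, a log2 difference of -0.88 ± 0.11 (SE, limma adjusted p = 0.000908), or 1.84-fold lower. *IAA26* (AT3G16500), first described as a phytochrome-associated protein, had 6.54, 6.34 and 6.11 in *naa20*, against 5.73, 5.54 and 5.64 in wildtype. The log2 difference of 0.69 ± 0.13 (SE, limma adjusted p = 0.00518), or 1.61-fold, was the highest of all members, and the genotypes did not overlap. *IAA18* (AT1G51950), its closest relative, had 7.64, 7.62 and 7.68 in *naa20*, against 7.17, 7.18 and 7.55 in wildtype. Its difference of 0.35 missed the limit in limma (adjusted p = 0.0622). Adjusted p was 0.00964 without the third wildtype array, which stood apart from the other wildtype arrays, and 0.0179 without array 3 of each genotype.

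**Figure D3:**
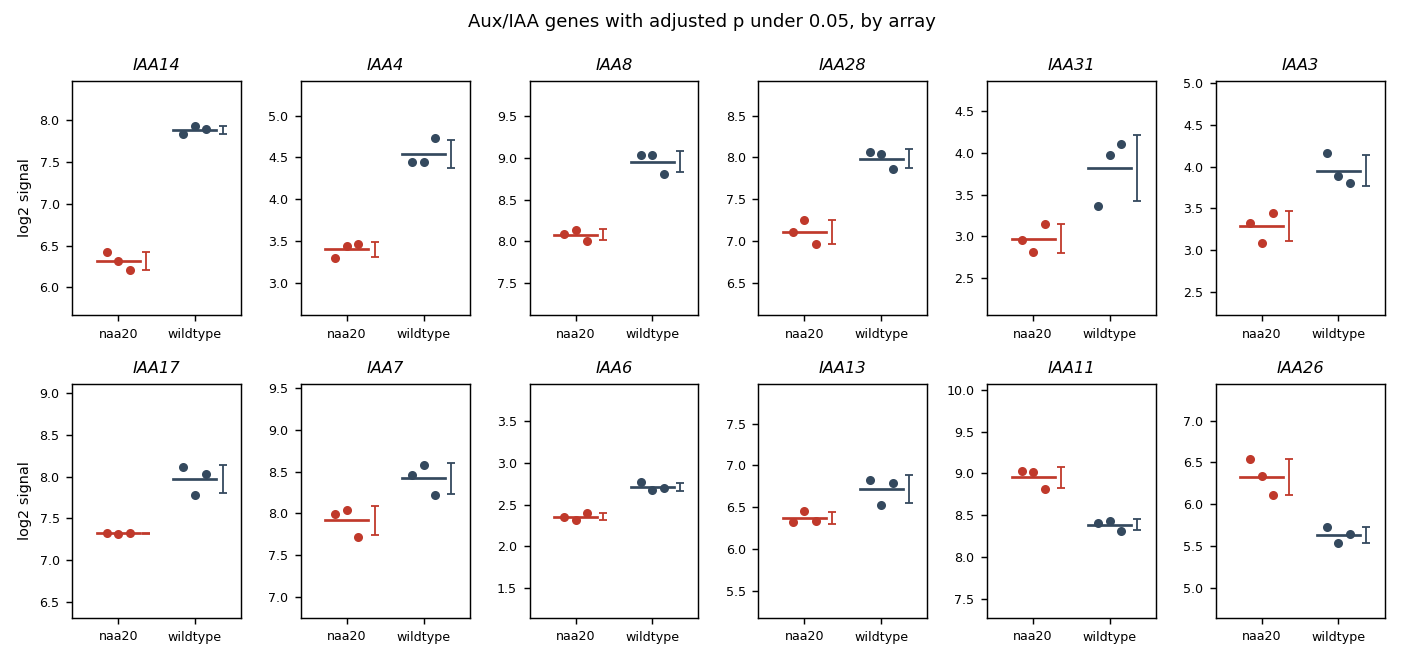
Log2 signals of the 12 Aux/IAA genes with an adjusted p under 0.05 on the 3 *naa20* arrays (red, left) and the 3 wildtype arrays (dark, right), with the mean as a line and 1 SD as a bar, on axes of equal span and in the order of their differences. The *naa20* arrays lie below the wildtype arrays in the first 10 panels, from *IAA14* (6.32 in *naa20*, 7.89 in wildtype) to *IAA13*, and above them for *IAA11* and *IAA26*.

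*IAA20*, *IAA30*, *IAA32*, *IAA33* and *IAA34* encode proteins that lack the degron through which TIR1/AFB receptors bind, and *IAA31* has an incomplete one. In this group *IAA31* alone passed the test. *IAA31* (AT3G17600) had 2.96, 2.81 and 3.15 in *naa20*, against 3.37, 3.97 and 4.11 in wildtype, a log2 difference of -0.84 ± 0.20 (SE, limma adjusted p = 0.0154). Signals were low and the wildtype arrays spread widely, and adjusted p lay between 0.0514 and 0.056 without the first or second *naa20* or the second wildtype array. *IAA34* had -0.49 (adjusted p = 0.0955) and *IAA20* had -0.32 (adjusted p = 0.124), which was 0.0166 for *IAA34* without the second *naa20* array and 0.0409 for *IAA20* with blocking by replicate number. *IAA33*, which acts in the stem cells of the root tip, had -0.10 (95% interval from -0.33 to 0.13). *IAA30* had 0.15 (95% interval from -0.11 to 0.40). *IAA32*, which acts with *IAA34* in the apical hook, had 0.26 (95% interval from 0.06 to 0.46, adjusted p = 0.0511), with all *naa20* arrays above all wildtype arrays.

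Close relatives did not always move together. The log2 difference of *IAA14* was 1.07 below that of *IAA7*, and that of *IAA8* was 0.81 below that of *IAA9*. In each case the signal of the first gene relative to the second was lower on every *naa20* array than on every wildtype array. In the same way *AFB3* was set 0.37 below *AFB2*, *IAA11* 0.29 above *IAA10* and *IAA32* 0.75 above *IAA34*. For *IAA12* and *IAA13* the differences were 0.03 apart, and for *TIR1* and *AFB1* 0.09 apart, with overlap between the genotypes. The pairs of *IAA1* with *IAA2*, *IAA4* with *IAA3*, *IAA26* with *IAA18* and *IAA20* with *IAA30* were 0.34 to 0.47 apart, also with overlap. In the RefSeq annotation, 3 further pairs are next to each other with 0 protein-coding genes between them, and these include both like and unlike shifts. *IAA3* and its neighbour *IAA17* had -0.67 and -0.65, while *IAA1* had -0.58 beside -1.57 in *IAA14*, and *IAA2* had -0.11 beside -0.50 in *IAA7*. These 14 pairs were chosen after the values were known. For the 7 pairs without overlap the exact two-sided permutation p was 0.1, the smallest that 3 arrays against 3 allow (0.2 after Benjamini-Hochberg adjustment over the 14), and for the other 7 it was 0.2 to 0.9, so no pair could pass 0.05. Probes of such similar genes may share signal.

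The other lists of the auxin pathway differed in direction. The ARF family includes the transcription factors that Aux/IAA proteins repress. Of 23 ARF genes, 8 were lower and 2 higher in *naa20* with an adjusted p under 0.05. These were 34.8% and 8.70% of the list, against 17.4% and 16.6% of all probe sets. The median log2 difference was -0.18, and -0.35 without the 25% of probe sets with the lowest mean signal. *ARF11* had 6.13, 6.02 and 5.80 in *naa20*, against 7.52, 7.87 and 7.46 in wildtype, a difference of -1.63 (limma adjusted p = 0.000212), the lowest of the list. *ARF18* followed with -1.20 (adjusted p = 0.000225), and *ARF14* was highest with 0.70 (adjusted p = 0.00918, and 0.0504 with the gene's own variance), at low signals. Of the ARFs that activate transcription, named here after their values were seen, *ARF8* differed by -0.93, *ARF6* by -0.50 and *ARF19* by -0.44, each with an adjusted p under 0.05 (0.00044, 0.00433 and 0.0157). For *ARF19* adjusted p was 0.0599 without array 3 of each genotype. *ARF7*, the main partner of *IAA19* and *IAA14* with *ARF19*, had 9.80, 9.81 and 9.80 in *naa20*, against 9.83, 9.80 and 9.80 in wildtype, and *ARF5* differed by 0.12 (adjusted p = 0.436). *ARF7* was thus nearly the same on all 6 arrays.

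Of 5 TOPLESS corepressor genes, 4 were lower in *naa20* with an adjusted p under 0.05 (80%, against 17.4% of all probe sets), from *TPR3* at -0.46 (limma adjusted p = 0.0157), while *TPL* itself differed by 0.04 (95% interval from -0.19 to 0.28). That count was 1 without the first or second *naa20* or the first or second wildtype array, 2 without the third wildtype array, and 3 with blocking by replicate number, where *TPR2* no longer passed (adjusted p = 0.0667). The next list held 9 genes for SCF subunits, for the neddylation that activates them and for other SCF-linked proteins. Of these, 3 were higher (33.3%, against 16.6% of all probe sets) and 0 lower with an adjusted p under 0.05. All *naa20* arrays were above all wildtype arrays for 8 of them (88.9%, against 23.4%). *AXR1*, a subunit of the neddylation enzyme, was highest with 0.42 (adjusted p = 0.0107), and *ASK2* lowest with -0.20 (adjusted p = 0.145). Without the first *naa20* or the first or second wildtype array, the number with such a p was 1, and with blocking by replicate number it was 2, as *CUL1* no longer passed (adjusted p = 0.055).

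The largest positive difference of the auxin lists was that of *GH3.3*. The GH3 enzymes conjugate auxin to amino acids, and this gene had 11.17, 10.82 and 10.47 in *naa20*, against 8.42, 8.47 and 7.80 in wildtype. Its log2 difference was 2.59 ± 0.24 (SE, limma adjusted p = 0.000246), or 6.02-fold higher, and no array came near the other genotype. *GH3.9* went the other way, with 5.53, 5.80 and 5.55 in *naa20*, against 7.26, 7.12 and 6.72 in wildtype, a difference of -1.40 (adjusted p = 0.00058). In the GH3 list of 8 genes 2 were higher and 1 lower with an adjusted p under 0.05, and the median was -0.04. Without *naa20* array 3, 5 of the 8 passed, with no share of all probe sets given for that fit. Of 16 loci listed for auxin synthesis and turnover 3 were higher and 3 lower with an adjusted p under 0.05. Each was 18.8% of the list, near the shares of all probe sets (16.6% higher and 17.4% lower). With each gene's own variance 3 in all passed. The highest were the neighbouring loci AT1G14120 with 1.74 and AT1G14130 with 1.47, for which the table of names gives no symbol. The lowest was *TAR2*, a tryptophan aminotransferase gene of auxin synthesis, with 4.16, 4.53 and 4.40 in *naa20*, against 5.30, 5.24 and 5.57 in wildtype, a difference of -1.01 (adjusted p = 0.00123).

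Of 4 LBD genes, targets of ARFs in lateral roots, and of 7 genes for PIF and shade factors, 0 passed an adjusted p under 0.05 in limma. Over all probe sets the share that passed was 33.9%. The LBD genes ranged from *LBD33* at -0.71 (adjusted p = 0.0791, and 0.0108 without the third *naa20* array) to *LBD16* at -0.21. *PIF4*, a transcription factor gene that controls *IAA19* and *IAA29*, had 7.73, 8.19 and 8.72 in *naa20*, against 8.89, 9.01 and 10.38 in wildtype. For this gene the third array was highest in each genotype. Its log2 difference of -1.21 missed the limit in limma (adjusted p = 0.0655), but passed with blocking by replicate number (0.00415) and without array 3 of each genotype (0.0102). *HFR1*, a negative regulator of shade responses named here after its values were seen, differed by -1.05 (adjusted p = 0.0906). Its adjusted p was 0.00343 with the block, 0.00106 without array 3 of each genotype and 0.00705 without the third wildtype array. *PIF3* was highest with 0.53 (adjusted p = 0.226), and with 0.91 (adjusted p = 0.00143) without the third wildtype array. Without array 3 of each genotype, 3 genes of the PIF list and 1 of the LBD list passed.

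**Figure D4:**
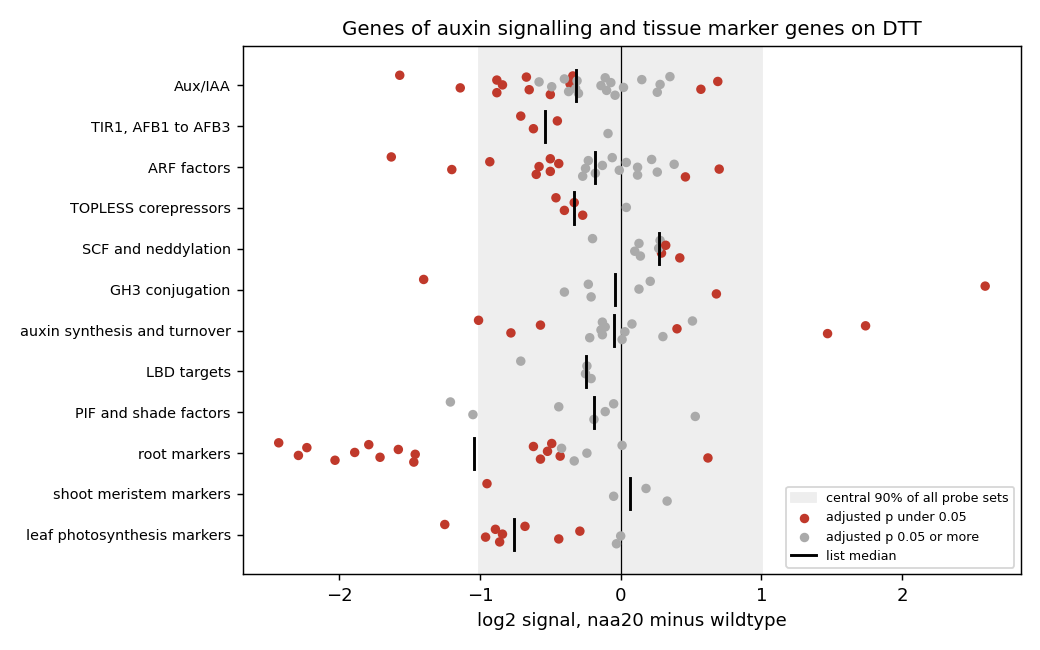
The log2 difference (*naa20* minus wildtype) of each gene in the lists of auxin signalling and of tissue markers, with red points for an adjusted p under 0.05 and a black line at each list's median, over a grey band that holds the central 90% of all probe sets (from -1.01 to 1.00). The medians of the Aux/IAA genes (-0.32) and of the receptors (-0.54) lie left of 0, that of the SCF genes right of it (0.27), and the root markers reach furthest left (median -1.04).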

How the data were processed

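Values were taken as the authors deposited them, on a log2 scale, 1 per gene. Background had been corrected by RMA and arrays quantile-normalized, with genes defined by a custom chip definition (CDF version 16). The sorted values of the 6 arrays are the same (1.75 to 14.6, median 6.12). Precision is limited by having 3 arrays per genotype. Detection per probe is unknown. Linear models with moderated variance (limma 3.58.1, R 4.3.3) gave the genotype difference of each of 27827 probe sets, and p-values were adjusted over all of these by Benjamini-Hochberg. Passing the test meant an adjusted p under 0.05, and a gene counted as 2-fold different when it passed with at least that difference, the limits named in the methods. An exact two-sided permutation test of single values cannot go below 0.1 with 3 arrays against 3.

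Members and lists were chosen with earlier results of these data known. All 33 members, and 140 of 145 listed genes, carry the listed symbol, or have it as a synonym, in the RefSeq table (TAIR 10.1), used for names and neighbours only. The text names every member, the highest and lowest gene of each list, and genes at least 2-fold different, apart from a root marker that is not reported here. *ARF5*, *ARF6*, *ARF7*, *ARF8*, *ARF19* and *HFR1*, the 4 root markers that did not pass and the gene pairs were added after their values were seen. On simulated data of 27827 genes with independent noise, 100 genes were changed by 1.5 and 100 by 3 on the log2 scale. By the 2-fold rule, 85% of the former and 100% of the latter were recovered. Most members differed by less than 1.5, so recovery at their sizes was not tested. The labels do not say whether arrays stand for separate cultures, so p-values measure only the spread between these samples, which may be technical.

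Deviations from the genotype means correlated at 0.176, 0.19 and 0.385 between arrays of equal replicate number, each above 0.1, and the arrays were therefore treated as paired by number in an alternative fit. Arrays 1 and 2 of opposite genotypes correlated nearly as well (0.174 and 0.145), and the labels do not say what a number shares. As deviations from a mean of 3 arrays sum to 0, the values among arrays 1 and 2 also depend on that of the third arrays. Besides that block, results were recomputed with an intensity trend and robust moderation, with each gene's own variance, after centring on medians, without the lowest 25% of mean signals, with weighted arrays, at a 1.5-fold limit, and without each array. Leaving out array 3 of each genotype was chosen after the data were seen. Plots used matplotlib 3.10.9 (Python 3.11.15).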

Additional observations from a re-analysis of the deposited data

How the results depend on the processing

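With each array left out in turn, 11 to 16 of the 33 members had an adjusted p under 0.05 from limma (15 with all arrays). From 2 to 3 members were at least 2-fold different, and 10 of the 15 kept such a p in every one of these fits. How many of all probe sets passed in each fit is not given here, so these numbers cannot be weighed against the whole array. The Aux/IAA median lay between -0.37 and -0.27 and the receptor median between -0.59 and -0.50 in these fits, and it was -0.57 without array 3 of each genotype. At a limit of 1.5-fold, 10 of the 33 members passed, against 5834 of all 27827 probe sets. With array weights, or without the 25% of probe sets with the lowest mean signal, 4 members were higher in *naa20*, in place of 2. When arrays were paired by number, 17 members passed. No count over all probe sets is given for the paired fit, the weighted fit or the fit without the lowest signals. The numbers of members in these fits cannot be weighed against the whole array either. Pairing changed the calls of *IAA12*, *IAA13*, *IAA20* and *IAA27* and of no other member. Among the other named genes it changed those of *PIF4*, *HFR1*, *TPR2* and *CUL1*. Some small differences turned sign. Over the fits that each lack 1 array, *IAA2* lay between -0.26 and 0.13, *IAA5* between -0.08 and 0.08, *IAA15* between -0.27 and 0.12, *IAA19* between -0.08 and 0.02, and *TPL* between -0.02 and 0.1, and *IAA19* was at 0.02 without array 3 of each genotype. Without the probe sets of lowest signal, the median was -0.31 for the shoot meristem markers, -0.35 for the ARF genes and -1.46 for the root markers. With each gene's own variance *AFB1*, *IAA7*, *IAA13* and *IAA31* no longer passed, and *IAA32* did. The cause of these changes was not tested. Low signals limit *IAA3*, *IAA4*, *IAA6* and *IAA31*, and *MIR393B* outside the members.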
